A study of Homo sapiens with 13 samples.

Results

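The genes of the platelet-derived growth factor (PDGF) system measured on the array are 3 receptor genes, PDGFRA, PDGFRB and PDGFRL, and the 4 ligand genes PDGFA, PDGFB, PDGFC and PDGFD. They were taken by symbol and gave 7 of the 30844 named genes of the array, with 13 probes. PDGF ligands are secreted dimers that bring receptor tyrosine kinases together at the cell surface. PDGF-A and PDGF-C chains act mainly through PDGFRA, and PDGF-B and PDGF-D chains mainly through PDGFRB, while PDGFRL is a receptor-like protein without a kinase domain. In the embryo PDGFRA is widely used as a marker of early mesoderm, and in growing vessels endothelial cells make PDGF-B, which recruits PDGFRB-bearing pericytes and smooth muscle cells.

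Expression was measured in human embryonic stem cells of the RUNX1C GFP/w line, which carries a green fluorescent protein reporter at RUNX1 and derives from HES3, an established line kept on mouse feeder cells. They were grown as spin embryoid bodies, cell aggregates made in a centrifuge, in serum-free APEL medium. The medium of the first 4 days held BMP4, VEGF, SCF and activin, and the medium given at day 4 held BMP4, VEGF, SCF, FGF2 and IGF2. One set of 9 arrays covered unsorted cells, with 1 array for undifferentiated cells at day 0 and 1 for each of days 1 to 8. The other set of 4 arrays covered day 7 cells sorted on CD34, found on endothelium and early blood cells, and CD41, found on megakaryocytes and early blood cells. Cells without CD41 were split into CD34-CD41-, CD34lo CD41- and CD34hi CD41- fractions, and the other fraction was CD34lo CD41lo. All groups come from the same reporter line, and no differentiated group without these agents was included. No PDGF ligand and no receptor inhibitor was listed among the added agents.

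With 1 array per day and per fraction, levels are given without an SD or n, and precision is limited by how few arrays there are. Between 15134 and 17833 probes were detected per array, at a detection p below 0.01. Levels are normalized log2 intensities, and the lowest level of a detected probe ran from 5.29 to 5.73 over the arrays. CD34 had a level of 8.52, 10.58, 12.88 and 10.06 in CD34-CD41- cells, CD34lo CD41- cells, CD34hi CD41- cells and CD34lo CD41lo cells, and ITGA2B, which encodes CD41, was detected in CD34lo CD41- cells (5.96) and CD34lo CD41lo cells (9.19) alone. The fractions were run on another chip than the days, so sorting and chip cannot be told apart where a fraction is set beside unsorted cells. In these bulk samples fewer cells of a type and less RNA per cell cannot be told apart.

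Of the 13 probes 11 were detected on at least 1 array of the time course and 9 on at least 1 fraction. All 7 genes had such a probe over days, and all but PDGFRL had one in the fractions. A probe of PDGFA (ILMN_1782661) and a probe of PDGFB (ILMN_1737695) were detected on no array. Levels of different probes are not set against each other, and the brightest detected probe stands for each gene.

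Promoter windows of the genes with the widest range over days are printed because the receptors PDGFRA and PDGFRB were high on the days on which PDGFA was low. They are RefSeq sequences of GRCh38.p14, each with 250 bases before and 50 bases after an annotated transcript start, and for PDGFA the window of the outermost start is shown. Capitals mark GGGCGG, the GC box bound by SP1-type factors, and CCAAT, the box bound by NF-Y, on either strand (CCGCCC and ATTGG where reversed), and no GGGCGG overlapped a CCAAT.
PDGFRA, outer start, chr4:54229043-54229342, plus strand: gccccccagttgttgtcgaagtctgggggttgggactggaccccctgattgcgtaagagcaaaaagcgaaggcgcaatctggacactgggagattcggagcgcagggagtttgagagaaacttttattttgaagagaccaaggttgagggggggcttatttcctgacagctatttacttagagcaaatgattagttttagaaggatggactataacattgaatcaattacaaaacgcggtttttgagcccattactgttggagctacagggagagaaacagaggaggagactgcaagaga
PDGFRA, inner start, chr4:54233710-54234009, plus strand: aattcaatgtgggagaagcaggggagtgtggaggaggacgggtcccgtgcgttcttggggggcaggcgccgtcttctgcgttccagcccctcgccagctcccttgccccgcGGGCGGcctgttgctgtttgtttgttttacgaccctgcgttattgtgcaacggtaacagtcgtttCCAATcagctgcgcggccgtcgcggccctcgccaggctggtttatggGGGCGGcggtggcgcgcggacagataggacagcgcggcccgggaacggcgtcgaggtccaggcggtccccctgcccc
PDGFRB, chr5:150155796-150156095, minus strand: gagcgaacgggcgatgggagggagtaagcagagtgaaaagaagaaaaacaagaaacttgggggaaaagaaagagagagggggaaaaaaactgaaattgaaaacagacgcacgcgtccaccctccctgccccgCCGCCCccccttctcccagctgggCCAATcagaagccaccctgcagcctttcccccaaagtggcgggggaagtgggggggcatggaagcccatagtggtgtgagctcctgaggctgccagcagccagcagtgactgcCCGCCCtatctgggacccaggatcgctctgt
PDGFA, outer start, chr7:520651-520950, minus strand: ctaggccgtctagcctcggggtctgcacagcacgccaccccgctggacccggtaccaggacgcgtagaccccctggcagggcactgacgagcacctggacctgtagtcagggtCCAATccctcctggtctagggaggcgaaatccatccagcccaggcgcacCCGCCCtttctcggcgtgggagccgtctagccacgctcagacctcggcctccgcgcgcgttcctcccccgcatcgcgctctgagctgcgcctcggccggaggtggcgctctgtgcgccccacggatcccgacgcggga
The outer PDGFRA window held neither motif and had 47% G and C. The inner PDGFRA window and the PDGFRB window each held 2 GGGCGG and 1 CCAAT, with 66.7% and 59.3% G and C. The outer PDGFA window held 1 GGGCGG and 1 CCAAT, with 70.3% G and C. The other PDGFA windows held 4, 4 and 5 GGGCGG and no CCAAT, with 71.7%, 81.7% and 72.7% G and C, so the PDGFA windows differed among themselves. Of 35116 windows of the same length in the table, 45.0% held GGGCGG and 34.6% held CCAAT. The motifs are a description of these letters and were not tested as sites. PDGFRA had 2 windows, PDGFA 4, and PDGFRB and PDGFD 1 each, whereas none was used for PDGFRL, PDGFB and PDGFC. For PDGFRL this does not mean that a search found none.

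PDGFRA (GRCh38.p14 chr4:54229293-54298245), the receptor that binds all PDGF chains but PDGF-D with high affinity, showed the widest range of the 7 genes over days. It was not detected at day 0 (5.19) and had a level of 5.79 at day 1 and 8.87 at day 2. It then had a level of 9.54 at day 3, 11.25 at day 4, 11.76 at day 5, 11.53 at day 6, 11.23 at day 7 and 10.65 at day 8. The highest value thus came the day after the medium change, and all days from day 4 on lay above all earlier days. Day 2 was 8.43-fold above day 1, day 4 was 3.27-fold above day 3, and day 4 was at least 58.6-fold above day 0. The fitted rise from day 0 to 4 was 6.16 ± 0.47 log2 units (SE; limma adjusted p = 0.00017), and from day 0 to 8 it was 5.74 ± 0.54 (adjusted p = 0.000195). From day 4 to 8 the fitted change of PDGFRA was -0.42 ± 0.47 (adjusted p = 0.66). Its second probe, detected from day 2 on, followed it with a correlation of 0.994 over the 9 arrays and had a fitted change of 5.81 ± 0.61 from day 0 to 4 (adjusted p = 0.000679).

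PDGFRB (chr5:150113839-150155845), the receptor for PDGF-B and PDGF-D chains that is known from pericytes and smooth muscle, reached its highest level at day 4. It had a level of 6.20 at day 0, was not detected at day 1 (4.57), and had 6.07 at day 2 and 6.85 at day 3. It had a level of 9.97 at day 4, 8.68 at day 5, 8.01 at day 6, 8.44 at day 7 and 8.65 at day 8. All days from day 4 on lay above all earlier days, with a step up of 8.68-fold from day 3 to day 4 and a step down of 2.43-fold from day 4 to day 5. The trend over days passed the test (limma adjusted p = 0.0411), whereas the fitted changes of 2.74 ± 1.03 from day 0 to 4 (adjusted p = 0.109) and 2.83 ± 1.19 from day 0 to 8 (adjusted p = 0.113) did not. The fitted curve gave 8.07 at day 4, below the measured 9.97, so the peak of PDGFRB rests on 1 array. Without day 4 the change from day 0 to 8 was 2.81 and passed (adjusted p = 0.0275). The trend of PDGFRB had an adjusted p of 0.14 without day 1, 0.0956 without day 2, 0.0711 without day 3, 0.0772 without day 5, 0.0614 without day 7, 0.0988 on the authors' normalized values and 0.117 with no filter on dim probes.

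PDGFRL (chr8:17576433-17643144), the receptor-like protein, was the receptor gene that fell. It had levels of 7.73, 7.32, 6.52, 5.78 and 5.47 at days 0 to 4, then 5.47 at day 5, 5.43 at day 6, 6.43 at day 7 and 6.75 at day 8, and was detected on all 9 days. Its course was a decline to a low stretch at days 4 to 6, followed by a partial return. PDGFRL fell by 2.34 ± 0.24 log2 units from day 0 to 4 (limma adjusted p = 0.000655) and rose by 1.36 ± 0.24 from day 4 to 8 (adjusted p = 0.00945). The second change was below 2-fold without background correction (0.96) and with a neqc offset of 50 (0.91). The change from day 0 to 8 was -0.97 ± 0.28 (adjusted p = 0.031), just under 2-fold, and without day 7 it was -1.08 and was called (adjusted p = 0.0288).

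**Figure D1:**
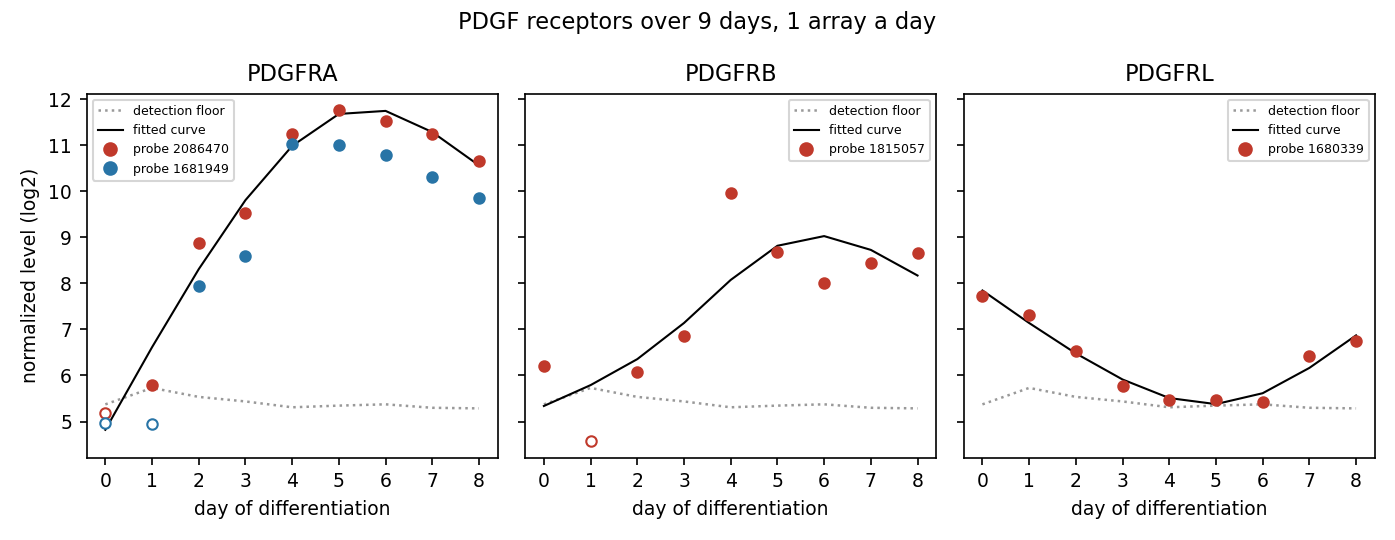
Normalized log2 level (y axis) of each detected probe of PDGFRA, PDGFRB and PDGFRL at days 0 to 8 (x axis), 1 array a day, with filled points for detected and open points for not detected, the detection floor of each array as a dotted line and the fitted curve of the probe used as a solid line. PDGFRA reached 11.76 at day 5, PDGFRB stood above its curve at day 4 (9.97), and PDGFRL fell from 7.73 to a low of 5.43 at day 6.

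Among the ligands PDGFA (chr7:497258-520700), whose product signals through PDGFRA, ran opposite to that receptor. It had a level of 9.41 at day 0, 9.98 at day 1, 8.23 at day 2, 5.97 at day 3 and 5.75 at day 4. It was not detected at day 5 (5.31) and had 5.68, 5.60 and 5.62 at days 6, 7 and 8. Days 0 to 2 lay above all later days, and the later days lay near the detection floor. The steps down were 3.37-fold from day 1 to day 2 and 4.78-fold from day 2 to day 3. PDGFA fell by 4.16 ± 0.64 log2 units from day 0 to 4 (limma adjusted p = 0.00363) and by 4.27 ± 0.74 from day 0 to 8 (adjusted p = 0.00356). A weaker PDGFA probe, ILMN_1685982, was detected at day 0 alone, with a fitted change of -0.87 ± 0.23 from day 0 to 4 (adjusted p = 0.036, under 2-fold). Over the 9 arrays the levels of PDGFA and PDGFRA had a correlation of -0.96, which describes 2 courses measured on the same arrays.

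PDGFB (chr22:39223359-39244982), the ligand that endothelium presents to mural cells, was dim. It had a level of 6.44 at day 0, was not detected at days 1 to 5 (4.53 to 5.03), and had 5.57, 5.52 and 5.37 at days 6, 7 and 8. Day 0 thus stood apart, and the late values lay close to the detection floor. The fitted fall of PDGFB from day 0 to 4 was -1.41 ± 0.36 log2 units (limma adjusted p = 0.0308). That call was lost in several alternatives. Its adjusted p was 0.0608 without day 4, 0.0587 without day 5, 0.054 without day 7, 0.0654 on the authors' normalized values, 0.0623 with no filter on dim probes and 0.156 with a curve of 2 degrees of freedom, and the change was -0.98 without background correction and -0.83 with an offset of 50. Without day 1 the change from day 0 to 8 was -1.02 and was called (adjusted p = 0.0382). The trend of PDGFB passed (adjusted p = 0.0288) but had an adjusted p of 0.0703 without day 2, 0.0501 without day 4, 0.0612 without day 7, 0.0508 without day 8, 0.0502 on the authors' normalized values, 0.0631 with no filter on dim probes and 0.143 when the curve had 2 degrees of freedom. The second PDGFB probe was detected at day 0 alone among the days (5.72), and its fitted change, -0.87 ± 0.28, missed the threshold (adjusted p = 0.0721). The parent line grew on mouse feeder cells, and 5 of 9 mesenchyme and fibroblast genes were detected at day 0 and 4 of 9 at day 1, with summed levels of 64.8 and 62.3. Their part in the day 0 level of PDGFB and PDGFRB was not tested.

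PDGFC (chr4:156760454-156971799), a ligand that needs cleavage of its CUB domain before it binds PDGFRA, was detected on all 9 days. It had levels of 6.27, 6.60, 5.98, 5.74 and 5.61 at days 0 to 4, then 6.87, 7.12, 6.91 and 7.37 at days 5 to 8. All days after the medium change lay above all earlier days, with a step up of 2.39-fold from day 4 to day 5. The step was under 2-fold without background correction (0.90 log2 units) and with an offset of 50 (0.87). The trend passed (limma adjusted p = 0.0332), and the change from day 4 to 8 of 1.18 ± 0.38 did not (adjusted p = 0.0943). Without day 0 that change was 1.30 and passed (adjusted p = 0.0248). The trend of PDGFC had an adjusted p of 0.0524 without day 2, 0.0924 without day 3, 0.0773 without day 6, 0.0833 without day 7, 0.169 without day 8, 0.0686 on the authors' normalized values and 0.0743 with no filter on dim probes.

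PDGFD (chr11:103907189-104164147), the other ligand with a CUB domain and mainly a ligand of PDGFRB, stayed near the detection floor. It had a level of 6.25 at day 0, 5.89 at day 1, 5.91 at day 2 and 5.85 at day 4, and was not detected at days 3 and 5 (5.22 and 5.10). It had 5.69, 5.90 and 6.27 at days 6 to 8, so its first and last days were its highest and lay 0.02 apart. No trend passed for PDGFD (limma adjusted p = 0.103). Without day 4 the trend (limma adjusted p = 0.0317), a change of -1.01 from day 0 to 4 (adjusted p = 0.0436) and a change of 1.07 from day 4 to 8 (adjusted p = 0.0494) passed. These 2 changes were read off the curve at a day without an array. The measured difference from day 0 to day 4 was -0.40.

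**Figure D2:**
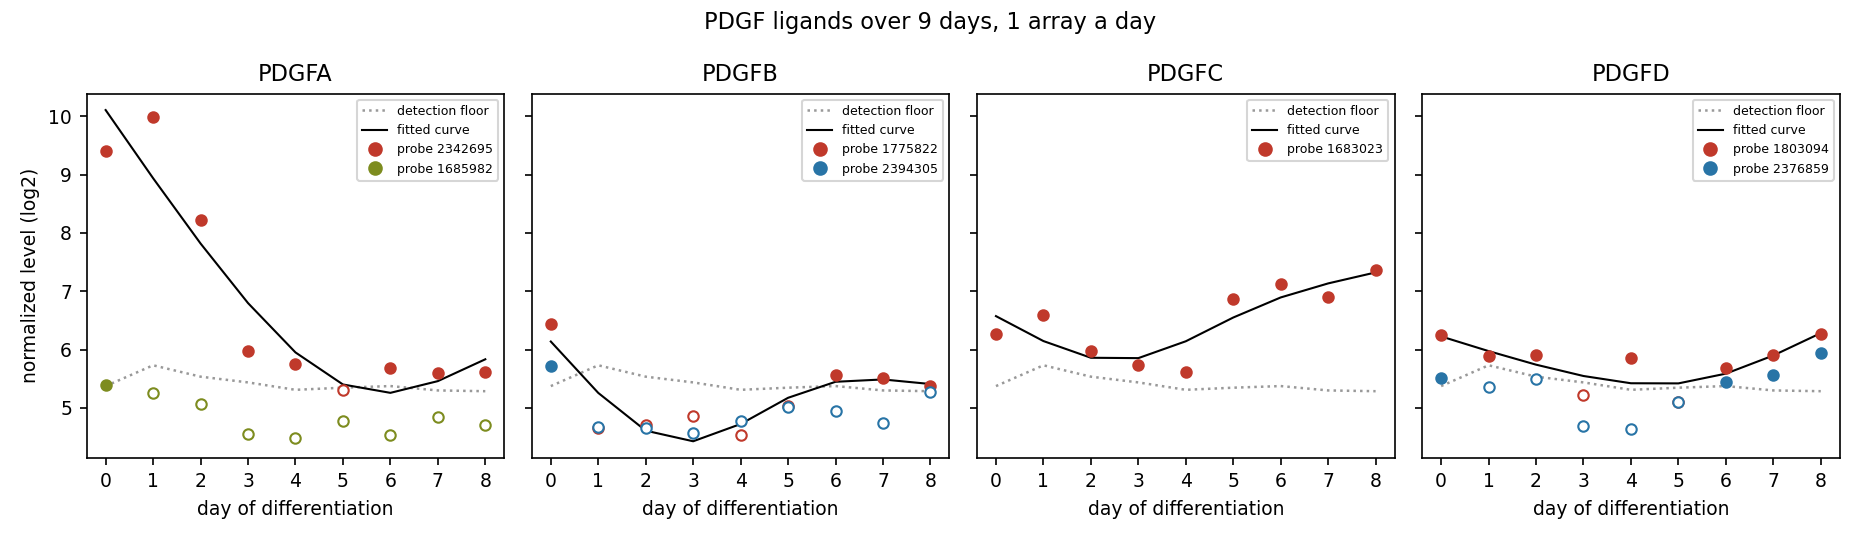
Normalized log2 level (y axis) of each detected probe of PDGFA, PDGFB, PDGFC and PDGFD at days 0 to 8 (x axis), 1 array a day, with filled points for detected and open points for not detected, the detection floor as a dotted line and the fitted curve of the probe used as a solid line. PDGFA dropped from 9.98 at day 1 to 5.97 at day 3, PDGFC stood higher from day 5 on (6.87 to 7.37), and PDGFB and PDGFD lay near the floor.

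Of the 7 genes 6 had a trend over days at an adjusted p below 0.05, against 38.8% of all 17657 genes and unnamed probes tested. From day 0 to 4, 1 gene was called up, PDGFRA, and 3 were called down, PDGFRL, PDGFA and PDGFB, against 6.28% up and 5.92% down over all features. From day 4 to 8 the 1 call was PDGFRL, up, against 4.94% up and 2.64% down. From day 0 to 8, 1 gene was called up, PDGFRA, and 1 down, PDGFA, against 11.8% and 10.2%. For a call, the adjusted p had to lie below 0.05 and the change had to reach 2-fold. The median fitted change of the 7 genes was -0.80, 0.69 and 0.06 for the 3 intervals in this order, beside -0.00, -0.04 and -0.04 for all features.

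Between neighbouring days 7 of 56 steps of the 7 genes passed 2-fold, 4 of them up and 3 down. They were PDGFRA up and PDGFA down from day 1 to day 2, PDGFA down from day 2 to day 3, PDGFRA and PDGFRB up from day 3 to day 4, and PDGFC up and PDGFRB down from day 4 to day 5. Over all features 4.03%, 4.21%, 5.17% and 5.71% passed 2-fold in either direction at these 4 steps, in order of time. No step of these genes passed from day 0 to day 1 or after day 5, where 3.05% and then 1.53%, 0.6% and 0.657% of features passed in either direction. PDGFRB and PDGFB were detected at day 0 but not at day 1, so their falls of 1.38-fold and 1.64-fold are lower bounds against the detection floor. Whether these 2 falls reached 2-fold cannot be told. Of the steps with both days detected PDGFRL came closest, just under 2-fold from day 6 to day 7. It passed there on the authors' normalized values (1.51 log2 units).

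The order of the days was compared with the spread about the fitted curve, as the SD of a difference between 2 arrays. For PDGFRA that spread was 0.59, and days 5, 6, 4, 7 and 8, in falling order, each differed from the next by less. The gaps from day 8 to day 3, day 3 to 2 and day 2 to 1 were larger. That from day 1 to 0 was larger (0.60) on the undetected day 0 value, but 0.42 against the detection floor of day 0. For PDGFRB the spread was 1.30, and of the neighbours in the order the last pair alone, day 2 and the undetected day 1, differed by more. Against the detection floor of day 1 that pair differed by 0.34, which is less. For PDGFA the spread was 0.81, and the gaps from day 0 to 2 and from day 2 to 3 were larger. For PDGFC it was 0.48, and no neighbouring pair differed by more.

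**Figure D3:**
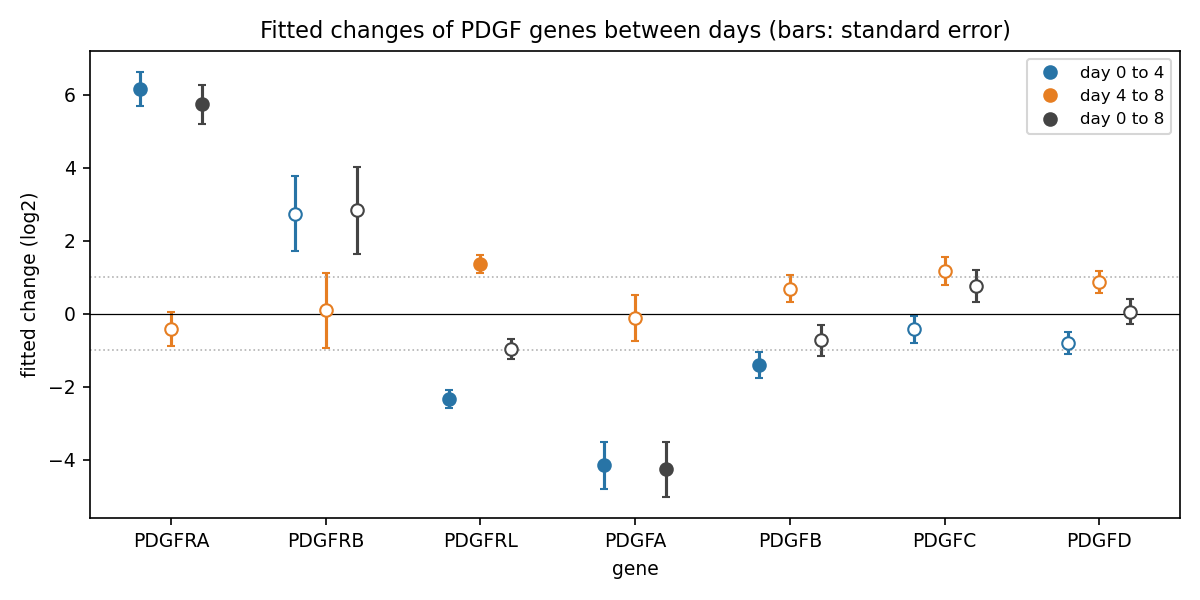
Fitted log2 change (y axis) of the 7 genes (x axis) from day 0 to 4, day 4 to 8 and day 0 to 8, with bars for the SE of the fitted curve, filled points for called changes, open points for those not called and dotted lines at 2-fold. PDGFRA lies at 6.16 and 5.74 for the intervals that start at day 0, PDGFA at -4.16 and -4.27, and PDGFRB, at 2.74 and 2.83, has the widest bars.

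In the day 7 fractions PDGFRA and PDGFRB were highest in other fractions than the ligands. PDGFRA had a level of 11.30 in CD34-CD41- cells, 10.61 in CD34lo CD41- cells, 8.55 in CD34hi CD41- cells and 7.17 in CD34lo CD41lo cells. It thus was lower in each fraction with more CD34 and lowest in the CD41lo cells, 17.6-fold below CD34-CD41- cells. CD34hi CD41- cells were 6.76-fold below CD34-CD41- cells, and the 2 fractions highest in PDGFRA differed by 1.61-fold. The second PDGFRA probe had 11.17, 10.41, 8.16 and 6.18 in the same order. Unsorted day 7 cells had a level of 11.23.

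PDGFRB had levels of 8.87, 8.92, 7.80 and 6.77 in CD34-CD41- cells, in CD34lo CD41- cells, in CD34hi CD41- cells and in CD34lo CD41lo cells. The first pair was within 1.03-fold, CD34hi CD41- cells were 2.11-fold below CD34-CD41- cells, and CD34lo CD41lo cells were 4.29-fold below them. The step between CD34hi CD41- and CD34-CD41- cells was -0.98 log2 units without background correction and -0.97 with an offset of 50, which is under 2-fold. PDGFRL was not detected on any of the 4 fractions (5.01, 4.88, 4.45 and 4.52), although unsorted day 7 cells had a level of 6.43. Of the 13889 features detected in unsorted day 7 cells, 4.09% were likewise detected in no fraction.

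PDGFA and PDGFB were detected in CD34hi CD41- cells alone, with levels of 6.68 and 6.57. The 3 fractions without detection had 5.19, 5.15 and 4.85 for PDGFA and 5.27, 4.81 and 4.73 for PDGFB. Against the detection floor of CD34-CD41- cells, CD34hi CD41- cells were at least 2.62-fold higher in PDGFA and at least 2.42-fold higher in PDGFB. The second PDGFB probe was also detected in CD34hi CD41- cells alone (6.08). Without background correction the CD34hi CD41- differences of these 2 ligands from each other fraction lay under 2-fold against the floor, as they did with an offset of 50.

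PDGFD had a level of 5.85 in CD34-CD41- cells, 5.37 in CD34lo CD41- cells and 8.10 in CD34hi CD41- cells, and was not detected in CD34lo CD41lo cells (5.26). CD34hi CD41- cells stood apart, 4.78-fold above CD34-CD41- cells, 6.68-fold above CD34lo CD41- cells and at least 6.19-fold above CD34lo CD41lo cells. The second PDGFD probe gave 5.77, 5.39, 7.90 and 5.23 in the same order, again with no detection in the last. Unsorted day 7 cells had a PDGFD level of 5.90. PDGFC had levels of 6.74, 8.42, 7.96 and 9.28 in CD34-CD41- cells, in CD34lo CD41- cells, in CD34hi CD41- cells and in CD34lo CD41lo cells, and 6.91 in unsorted cells. PDGFC was thus lowest where PDGFRA was highest and highest where PDGFRA was lowest, with 5.83-fold between these fractions. The other 2 fractions did not run opposite, as both genes were higher in CD34lo CD41- cells than in CD34hi CD41- cells.

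**Figure D4:**
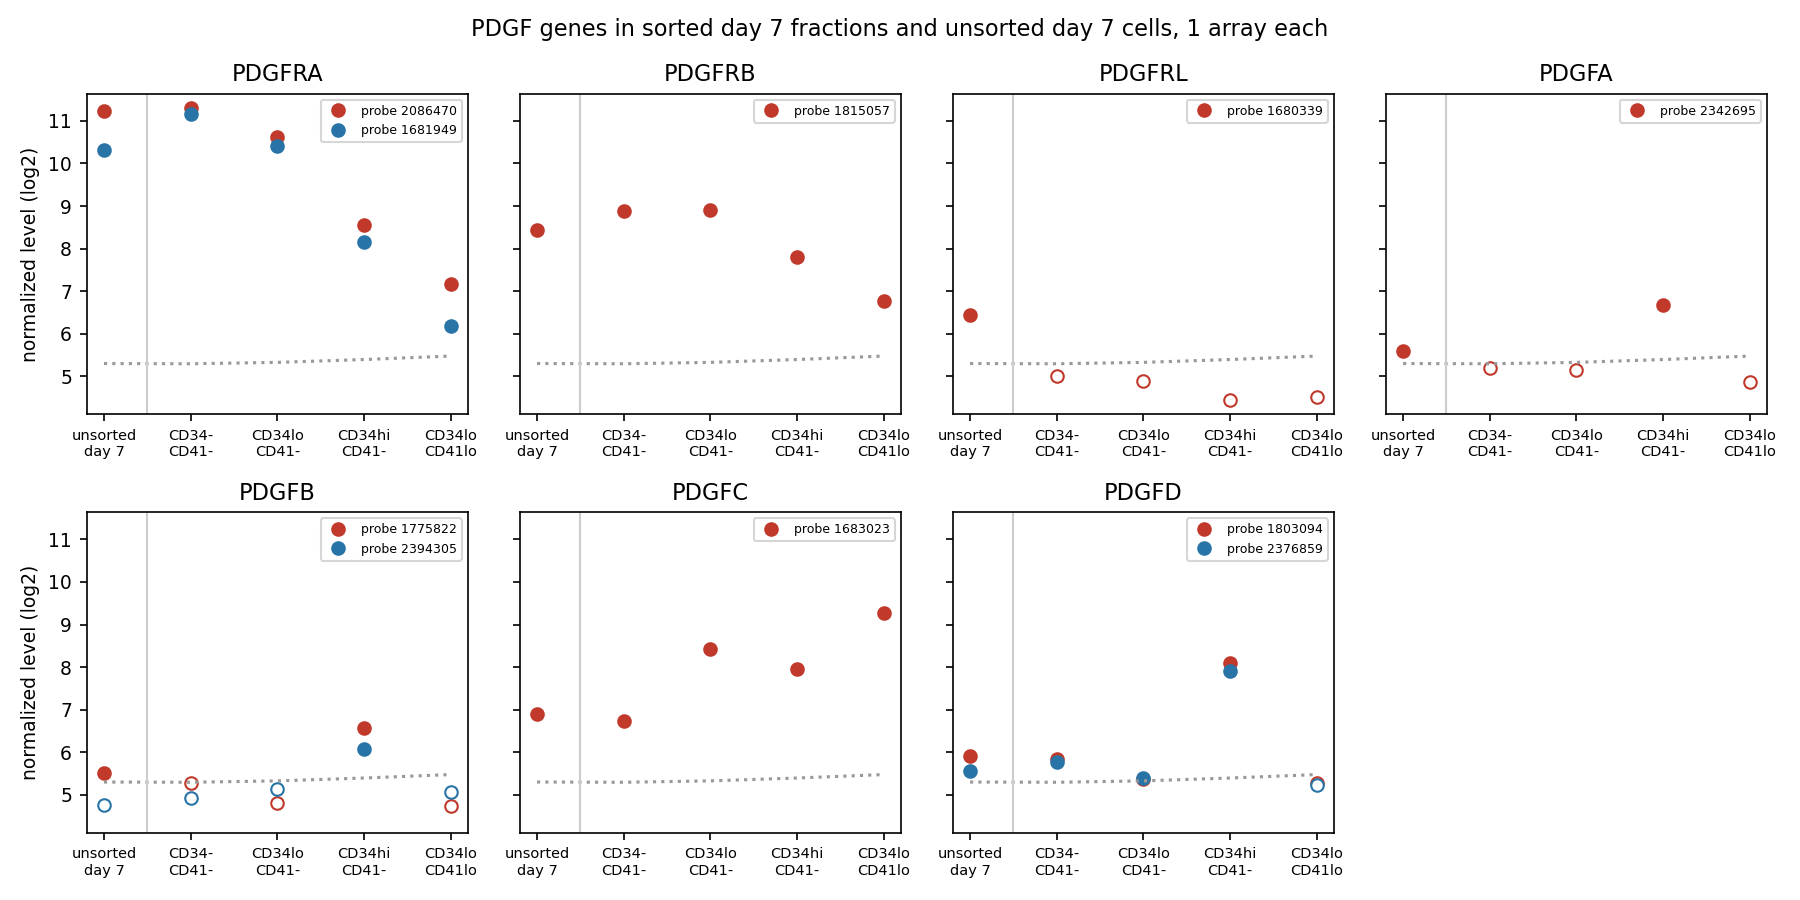
Normalized log2 level (y axis) of each detected probe of the 7 genes in unsorted day 7 cells and the 4 sorted day 7 fractions (x axis), 1 array each, with filled points for detected, open points for not detected and the detection floor as a dotted line. PDGFRA ranged from 11.30 in CD34-CD41- cells to 7.17 in CD34lo CD41lo cells, PDGFD reached 8.10 in CD34hi CD41- cells, and PDGFRL was detected in unsorted cells alone.

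Of 36 differences between pairs of fractions over the 6 genes detected there, 23 passed 2-fold on single arrays. From CD34-CD41- to CD34hi CD41- cells 4 genes were higher, the ligands, and 2 lower, the receptors, against 7% higher and 8.9% lower of all 15891 features. From CD34lo CD41- to CD34hi CD41- cells 3 were higher and 2 lower, against 3.98% and 4%. From CD34hi CD41- to CD34lo CD41lo cells PDGFC was higher and the other 5 were lower, against 5.17% and 6.95%. From CD34-CD41- to CD34lo CD41lo cells PDGFC was higher and both receptors were lower, against 8.26% and 11.1%. From CD34-CD41- to CD34lo CD41- cells PDGFC alone was higher (against 2.64% higher and 4.23% lower), and from CD34lo CD41- to CD34lo CD41lo cells both receptors were lower (against 2.68% higher and 5.68% lower). PDGFA and PDGFB, which these counts include, passed the detection filter through CD34hi CD41- cells alone. The direction of their differences from that fraction was thus fixed by the filter, and their folds are bounds against the detection floor. With 1 array a fraction no test was possible, and at 4-fold 10 differences remained.

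Markers of other cell types moved with these levels. The 9 mesenchyme and fibroblast genes had summed log2 levels of 90.1, 87.6, 79.5 and 69.4 in CD34-CD41- cells, in CD34lo CD41- cells, in CD34hi CD41- cells and in CD34lo CD41lo cells, in the same order as PDGFRA, and 7 of the 9 were highest in CD34-CD41- cells. In this order of fractions 9, 8, 7 and 6 of them were detected. The 7 endoderm genes ran in that order too and more steeply, with sums of 78.6, 72.2, 51.6 and 48.6, and 5 of the 7 were highest in CD34-CD41- cells. So did the 6 early mesoderm genes, with sums of 63.8, 63.4, 58.9 and 52.3, of which 3 were highest there. The 8 endothelial genes measured there had sums of 50.7, 63.7, 83.0 and 61.2, and 8 of 8 were highest in CD34hi CD41- cells, the fraction highest in PDGFA, PDGFB and PDGFD. Of them EMCN, CLDN5 and ERG, like PDGFA and PDGFB, were detected in that fraction alone. Their being highest there was thus fixed by the detection filter. The 6 red cell genes had sums of 51.2, 59.5, 41.4 and 68.9, and 6 of 6 were highest in CD34lo CD41lo cells, the fraction highest in PDGFC. Their sum was lowest in CD34hi CD41- cells, whereas PDGFC was lowest in CD34-CD41- cells. The 3 megakaryocyte genes measured in the fractions had sums of 15.7, 19.5, 21.3 and 25.7, and 2 of 3 were highest in CD34lo CD41lo cells. They include ITGA2B, which encodes the CD41 used for sorting. Over all features 30.4%, 9.66%, 25.1% and 34.8% were highest in these fractions. Of 8 mural cell and smooth muscle genes 4 were highest in CD34hi CD41- cells, with sums of 53.4, 55.3, 57.9 and 50.9, an order that differs from that of PDGFRB. Single mural genes differed in their order. RGS5, CSPG4, MCAM and ACTA2 were highest in CD34hi CD41- cells and KCNJ8 in CD34lo CD41lo cells. MCAM was detected in CD34hi CD41- cells alone, so its place was likewise fixed by the filter. NOTCH3, with 7.91, 7.77, 7.56 and 6.99, and ANPEP, with 6.95, 6.78, 6.55 and 6.14, had the order of PDGFRA. Both did so over a much narrower range than PDGFRA and on single arrays. CNN1 was detected in CD34-CD41- cells (5.66) and CD34lo CD41- cells (5.72) alone, the 2 fractions highest in PDGFRB. These levels lay close to the detection floors of the 2 arrays (5.29 and 5.32). The part of these cell types in the levels of the PDGF genes was not tested.

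Over days the levels summed over the 6 early mesoderm genes were 28.8, 30.5, 59.2 and 67.5 at days 0, 1, 2 and 4. From day 0 to 4, 6 of 6 were called up, as PDGFRA was, against 6.28% of all features. Other lists also had genes called up then, with 5 of 9 mesenchyme, 4 of 7 endoderm, 3 of 6 primitive streak and 2 of 7 endothelial genes. The mesenchyme and endoderm lists each had 1 gene called down, against 5.92% of all features. The primitive streak genes had sums of 28.1, 39.6, 59.8 and 46.2 at days 0, 1, 2 and 4. The mural list had 3 of 11 genes detected at day 0 and 7 at day 4, the day with the highest PDGFRB level, but also 7 at days 7 and 8. Sums over its 8 measured genes were 49.2 at day 0, 56.7 at day 4 and 53.2 at day 8. Of these 8 genes 1 was called up and 1 down from day 0 to 4, against 6.28% and 5.92% of all features. The mesenchyme list had a sum of 62.0 at day 3, 79.9 at day 4 and 99.8 at day 8, whereas PDGFRA had 11.76 at day 5 and 10.65 at day 8. The 7 endoderm genes had a sum of 39.3 at day 0, 54.2 at day 4 and 83.7 at day 8. The 5 pluripotency genes fell over the days on which PDGFA and PDGFRL fell, with sums of 58.5 at day 0, 58.6 at day 1, 53.4 at day 2, 48.1 at day 3, 44.6 at day 4 and 34.5 at day 8. Of these 5 genes 4 were called down from day 0 to 4, 4 from day 4 to 8, over which PDGFRL rose, and 5 from day 0 to 8. Over all features 5.92%, 2.64% and 10.2% were called down in these intervals. The part of these cells in the levels of the PDGF genes over days was not tested.

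Of 10 genes for proteins that cleave or bind PDGF chains, 1 was called up and 2 down from day 0 to 4, 3 up from day 4 to 8, and 3 up and 1 down from day 0 to 8, with medians of 0.11, 0.39 and 0.73. Over all features 6.28% were called up and 5.92% down from day 0 to 4, 4.94% up from day 4 to 8, and 11.8% up and 10.2% down from day 0 to 8, so 1 of 10 in a direction is near the share of all features. NRP1, a co-receptor for VEGF and PDGF, rose by 4.37 ± 0.72 log2 units from day 0 to 4 (limma adjusted p = 0.00485), from no detection at days 0 and 1 to 9.74 at day 4. PCSK5, a proprotein convertase, fell by 2.97 ± 0.45 (adjusted p = 0.00346) and rose by 2.75 ± 0.45 from day 4 to 8 (adjusted p = 0.0076). ST14, the protease matriptase, which can cleave PDGF-D, fell by 2.74 ± 0.32 from day 0 to 4 (adjusted p = 0.00112) and was not detected from day 3 on. A2M, a plasma protein that binds PDGF, rose by 3.77 ± 0.28 from day 4 to 8 (adjusted p = 0.000143) and had 9.77 in CD34hi CD41- cells. PLAT, the protease that activates PDGF-CC, was not detected at days 1 to 3 and had 5.85 at day 4 and 9.91 at day 5, the step at which PDGFC passed 2-fold. Its fitted change of 2.55 ± 0.68 from day 4 to 8 missed the threshold (adjusted p = 0.0501), and PLAT was named after its values were seen. In the fractions PLAT had 9.42, 8.42 and 6.26 in the CD41- cells, in the order of rising CD34, and was not detected in CD34lo CD41lo cells, the fraction highest in PDGFC.

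Of 23 genes that relay signals from PDGF receptors, 3 were called up from day 0 to 4, 0 in either direction from day 4 to 8 (3 with an unadjusted limma p below 0.05), and 2 up from day 0 to 8, with medians of -0.03, -0.06 and 0.11. The 2 of 23 called up from day 0 to 8 lie below the 11.8% of all features, and the 3 of 23 from day 0 to 4 stand beside 6.28%. PIK3R1, the regulatory subunit of PI3 kinase, rose by 3.40 ± 0.45 from day 0 to 4 (limma adjusted p = 0.00188). The kinase gene SRC rose by 2.55 ± 0.46 (adjusted p = 0.00703), and CBLB, a ubiquitin ligase of the CBL family, which ends receptor signals, rose by 1.23 ± 0.35 (adjusted p = 0.0437). Of 6 related receptor kinases 3 were measured over days. KIT, the SCF receptor next to PDGFRA on the same chromosome, rose by 1.38 ± 0.28 from day 0 to 4 (adjusted p = 0.0117), and KDR, a VEGF receptor, rose by 2.21 ± 0.41 (adjusted p = 0.008). In the fractions KDR had 6.19, 8.39, 10.01 and 6.87 and KIT had 8.01, 7.59, 10.06 and 6.70 in CD34-CD41- cells, in CD34lo CD41- cells, in CD34hi CD41- cells and in CD34lo CD41lo cells, so both were highest in CD34hi CD41- cells, where PDGFRA had 8.55, below its level of 11.30 in CD34-CD41- cells. CSF1R rose by 1.28 ± 0.31 from day 4 to 8 (adjusted p = 0.0356). Among the days CSF1R was detected at day 8 alone. It thus passed the detection filter through the day on which it was high, and its rise rests on that single array.

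The genes whose course was most like that of each PDGF gene with a trend were taken among about 2380 genes with a trend and a range of at least 2 log2 units, by Pearson correlation over the 9 arrays. For PDGFRA they were MSX1 (0.989), TMEM74B, SIRT4, FOXF1 and EGFLAM (0.986), of which MSX1 and FOXF1 are transcription factors of mesoderm. For PDGFRB they were CDK6 (0.977), LOC644743, TRPV2, LOC652968 and DNAJC15 (0.954). For PDGFRL they were MCOLN2 (0.985), SEL1L3, SHROOM3, LOC647859 and TMEM30B (0.944). The genes nearest to PDGFA were LCK (0.998), THBS2, ZDHHC22, LOC441453 and LOC643870 (0.996), those nearest to PDGFB were EBI3 (0.937), CALD1, ITGA3, ARHGAP23 and CSDC2 (0.842), and those nearest to PDGFC were CA4 (0.960), SERPINF1, TMEM200A, SRSF8 and ADAP2 (0.952). Among the PDGF genes themselves PDGFRA and PDGFRB had a correlation of 0.85, PDGFA and PDGFRB -0.87, and PDGFRA and PDGFC 0.26. The points of each correlation share the same 9 arrays and 1 course of differentiation.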

How the data were processed

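Deposited summary intensities of 13 Illumina arrays were used, with a detection value per probe, per the file headers. The lowest is -28.8, which shows a subtracted background. The medians of the arrays differ (8.7 to 13.4), so the arrays had not been brought to a common median. Whether another scaling between arrays had been done cannot be told from these values. The deposited detection values are fractions that rise with the intensity, and detection p was taken as 1 minus that value. The log2 values normalized by the authors were an alternative, and how they were transformed is unknown. Per the labels' protocols RNA was isolated with a Roche kit and labelled with an Ambion MessageAmp kit, and the tools GenomeStudio 2010.2 and lumi are named, per the submitters' processing notes, with no role for either. Each signal column had a rank correlation of at least 0.999995 with its sample's normalized column and at most 0.904 with any other.

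Intensities were corrected and quantile normalized over all arrays with neqc (offset 16) of limma 3.58.1 in R 4.3.3. A probe with no values on the time course was dropped (1 of 47231). Current symbols were carried by 27035 probes, 4649 were updated, 12276 were not matched and 3270 had none. Probes detected (p below 0.01) on 1 or more arrays of an experiment were kept, and the brightest probe stood for a gene. Each feature was fitted over days by a natural spline with 3 degrees of freedom (5 residual and 3.98 prior). A p-value thus measures the spread about a smooth curve, with Benjamini-Hochberg adjustment over all 17657 features. The fit was tried on simulated straight-line changes alone, which do not cover abrupt steps such as that of PDGFRB at day 4. Fractions were compared as folds of single arrays, with an undetected side raised to the detection floor. The text names all 7 PDGF genes, pathway genes called in an interval (at most 4 a list), and the 5 genes most like each. PLAT, the mural genes and the endothelial genes EMCN, CLDN5 and ERG are named beyond that rule, after their values were seen. CD34 and ITGA2B are named as the sort markers. Members and lists were chosen with earlier results of these data known.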

Additional observations from a re-analysis of the deposited data

How the results depend on the processing

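Every trend and called change of PDGFRA and PDGFA and the trend of PDGFRL and its fall from day 0 to 4 were kept in all alternatives run, 16 to 18 for each, with PDGFRA between 5.16 and 7.27 from day 0 to 4. Calls that changed with a day left out are given with each gene. With day 4 left out, changes to and from day 4 were read off the curve at a day without an array. Of the 7 PDGF genes 3 had a trend on the authors' normalized values and 3 with no filter on dim probes, and 3 to 6 with a day left out. From day 4 to 8, 0 genes were called without background correction, 0 with an offset of 50, 2 with a curve of 2 degrees of freedom, and 1 to 2 with a day left out. From day 0 to 8 the curve of 2 degrees of freedom called 5, with PDGFRB (3.62), PDGFRL (-1.21) and PDGFC (1.16) beside PDGFRA and PDGFA. Over all features 885 to 1610 were called from day 4 to 8 with a day left out, the lowest without day 7, beside 1338 in all. Steps between days numbered 4408 over all features, but 7991 on the authors' values, 2825 without background correction, 2695 with an offset of 50 and 611 at 4-fold, and those of PDGF genes 11 on the authors' values and 3 at 4-fold in place of 7. Fraction differences of PDGF genes were 15 without background correction, 15 with an offset of 50 and 10 at 4-fold in place of 23, and 2890 in place of 11210 over all features at 4-fold. Signs turned only for changes that were not called. From day 0 to 8 these were PDGFB (0.027) and PDGFD (-0.058) with 2 degrees of freedom, and PDGFD with a day left out (-0.031 to 0.15). From day 4 to 8 they were PDGFA with the mean of probes (0.023) and with a day left out (-0.44 to 0.095), and PDGFRB with a day left out (-0.34 to 1.06). The cause was not tested. No paired analysis was possible because each group has 1 array and the labels give no replicate numbers. Levels near the detection floor (PDGFB, PDGFD and late PDGFA) are limited by signal over background.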
